A study of Mus musculus with 8 samples.

Results

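The 10 genes followed here belong to the bone morphogenetic protein (BMP) pathway that signals through the endothelial receptor ALK1, and they were measured in RNA from cells sorted as endothelial. They are the receptor genes Eng, Acvrl1 and Bmpr2, the SMAD genes Smad6, Smad7 and Smad9, the inhibitor of DNA binding genes Id1, Id2 and Id3, and the transcription factor gene Atoh8. The 10 genes were taken by symbol from a table of 23337 genes. All 10 were present, and 9 had a mean of at least 10 normalised reads and were tested, while Smad9 was below that level. The embryos carried, per the labels, a tamoxifen-inducible Cre recombinase under the endothelial Cdh5 promoter, Cdh5-CreERT2(PAC), together with the Cre-dependent Rosa26fsTRAP allele, and both groups shared this cross, although the genotype field reads wild type. One group received tamoxifen by gavage of the pregnant female at E12.5 (embryonic day), the other received none, and endothelial cells were sorted from whole embryos at E15.5. Tamoxifen and any Cre activity that it induces cannot be told apart in this design. The labels list 4 samples per group without saying whether they came from separate litters, so each p-value reflects no more than sample-to-sample spread, and that spread may be technical.

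The ALK1 pathway is the main BMP route of blood vessel lining cells. The circulating ligands BMP9 (gene Gdf2) and BMP10 bind ALK1 together with a type II receptor such as BMPR2, and endoglin presents the ligand. The receptors phosphorylate SMAD1, SMAD5 and SMAD9, which join SMAD4 and switch on the ID genes, Atoh8 and the inhibitory SMADs, SMAD6 and SMAD7, which in turn dampen the receptors. In people, mutations of ENG or ACVRL1 cause hereditary haemorrhagic telangiectasia, and mutations of BMPR2 cause heritable pulmonary arterial hypertension.

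Promoter sequences are shown for 3 of the genes, because Eng and Smad6 were the 2 genes called once 1 tamoxifen library was left out and Smad9 was the gene at the edge of detection. The set of RefSeq promoters used here held an entry for 7 of the 10 genes, not for Id1, Smad7 or Acvrl1. Each sequence gives the 250 bases before the start site in GRCm38.p6, 5′ to 3′ on the strand of the gene. Capitals mark matches to GGCGCC, the core of a GC-rich BMP response element, or to GTCTG, a SMAD box, searched on both strands. No match to one motif overlapped a match to the other.
Eng, chr2:32646345-32646594, plus strand: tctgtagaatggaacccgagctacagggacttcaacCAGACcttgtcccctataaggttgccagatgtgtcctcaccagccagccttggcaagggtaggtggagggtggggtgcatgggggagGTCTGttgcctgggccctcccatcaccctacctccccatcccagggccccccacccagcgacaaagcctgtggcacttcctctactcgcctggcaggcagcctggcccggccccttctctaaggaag
Smad6, chr9:64022060-64022309, minus strand: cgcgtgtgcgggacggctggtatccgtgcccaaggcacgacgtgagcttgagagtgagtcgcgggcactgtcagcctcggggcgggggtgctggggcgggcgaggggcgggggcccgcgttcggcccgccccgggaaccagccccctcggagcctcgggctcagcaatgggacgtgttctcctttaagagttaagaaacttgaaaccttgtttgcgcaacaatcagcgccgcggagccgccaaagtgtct
Smad9, chr3:54755332-54755581, plus strand: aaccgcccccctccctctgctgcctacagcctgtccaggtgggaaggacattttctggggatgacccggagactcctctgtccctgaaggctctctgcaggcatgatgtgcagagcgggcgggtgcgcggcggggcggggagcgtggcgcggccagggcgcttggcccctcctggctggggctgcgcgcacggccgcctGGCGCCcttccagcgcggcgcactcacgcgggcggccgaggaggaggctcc
GGCGCC was present in 3 of the 7 windows (Id2, Smad9 and Bmpr2) and in 9.6% of 32851 mouse promoter windows of the same length. GTCTG was present in 2 of the 7 (Id3 and Eng) and in 42.2% of all windows. The Smad6 and Atoh8 windows held neither. The windows of Id2, Id3 and Bmpr2 overlap annotated exons of their own gene, so 2 of the 3 windows with GGCGCC are partly or wholly exonic, while the 4 others, among them the 3 shown, overlap no annotated exon.

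The deposited table has a header that is 1 field short, so its library names can be placed over the first or the last 8 of its 9 value columns. Both placements give columns 3 to 5, counting the gene name as column 1, to the group without tamoxifen and columns 7 to 9 to the tamoxifen group. These 6 libraries, numbered 1 to 3 in each group in table order, were compared, and columns 6 and 10, whose group the header does not settle, are shown apart. With the names over the last 8 columns, column 6 falls to the group without tamoxifen and column 10 to the tamoxifen group. With the names over the first 8, column 6 falls to the tamoxifen group and column 10 has no name. In the 6 compared libraries, 12212472 to 19908404 reads per library fell in genes, of which 29.4 to 38.7% were on the ribosomal RNA precursor Rn45s. The values are the authors' normalised read counts. The sorted cells expressed endothelial markers, with Cdh5, the endothelial cadherin, at 1978 to 5201 normalised reads and Pecam1, an endothelial adhesion molecule, at 1279 to 2879. Macrophage RNA was abundant as well, with the receptor gene Csf1r at 7464 to 12229, so no value can be assigned to endothelial cells alone. Summed over 12 endothelial markers, all 12 of them detected, the level was 12962.9 to 21459.9 normalised reads without tamoxifen and 8748.3 to 21774.9 with it, and over 11 macrophage and leukocyte markers 46453.0 to 53852.4 and 35459.9 to 56360.7. The sum over 10 mesenchymal markers ranged from 2015.8 to 4327.9 in the group without tamoxifen and from 4487.4 to 87053.0 in the tamoxifen group. The tamoxifen libraries thus differed among themselves, since tamoxifen_1 and tamoxifen_2 held the high mesenchymal sums of 56326 and 87053, and tamoxifen_3 held the low endothelial sum.

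None of the 9 tested genes passed the test between groups. limma on log2(value + 1), with Benjamini-Hochberg adjustment over 13480 genes at 0.05, called 0.0445% of all genes, 6 higher and 0 lower. The adjusted p-values of the 9 genes ran from 0.610 for Id3 to 0.988 for Id2. At an unadjusted p under 0.05 the count was again 0 of 9, where 9.01% of all genes passed. On recovered reads edgeR called 0 of 9 beside 0.0371% of all genes, and DESeq2 called 0 of 9 beside 2.04%. The median log2 fold change of the 9 was 0.23, with 6 positive and 3 negative, beside -0.02 over all genes tested. For 0 of the 9 genes did the groups stay clear of each other, while they did so for 13.9% of all genes, 6.24% being higher with tamoxifen. Without tamoxifen_3 the limma test called 2 of the 9, Eng and Smad6, both higher, in a setting where 10.7% of all genes were called. With any other library left out instead, it called 0 of the 9.

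**Figure D1:**
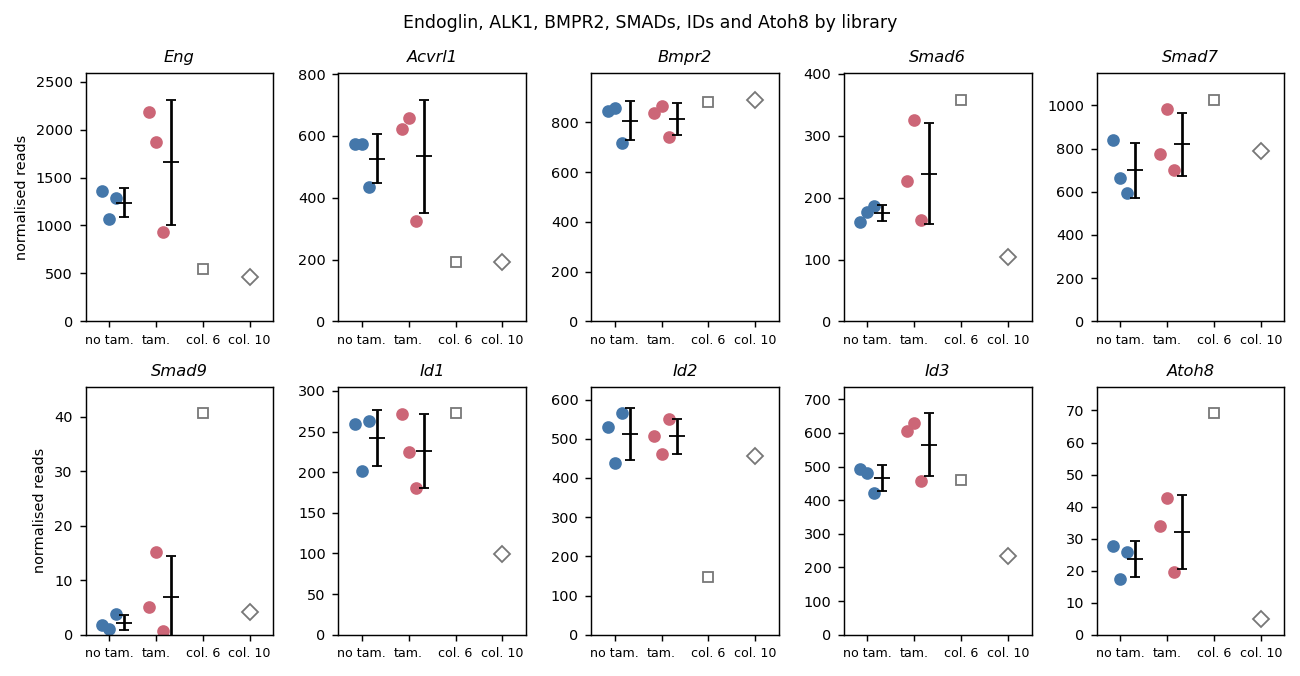
Normalised reads of the 10 genes in each library, on linear axes from 0. Blue points are the 3 libraries without tamoxifen, red points the 3 with it, in table order from left to right, black bars the mean ± SD of each group (cut at 0 for Smad9), and open grey symbols columns 6 and 10 of the table. For Eng, Acvrl1, Id3, Smad6 and Atoh8, tamoxifen_1 and tamoxifen_2 lie above every library without tamoxifen, and tamoxifen_3 does not. The same holds for Smad9, at only 1 to 16 reads per library. The share of all genes with such a split was not counted.

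The receptor genes differed in how widely they spread within the tamoxifen group. Eng encodes endoglin, the co-receptor that presents BMP9 and BMP10, and lies on chromosome 2 at 32646595 to 32682669 of GRCm38, plus strand. It was at 1360.5, 1065.2 and 1291.3 normalised reads without tamoxifen and at 2180.2, 1866.9 and 930.0 with it. tamoxifen_1 and tamoxifen_2 were thus above, and tamoxifen_3 below, every library without tamoxifen. The means were 1239 ± 154.5 and 1659 ± 650.5 (SD, n = 3 each), a log2 fold change of 0.34 ± 0.28 (SE, limma adjusted p = 0.736), or 1.26-fold with a 95% interval of 0.805 to 1.99. Without tamoxifen_3 the log2 fold change was 0.71 ± 0.13 (SE, limma adjusted p = 0.00212). It was 0.10 without tamoxifen_1 and 0.21 without tamoxifen_2 (limma adjusted p = 0.985 and 0.936). With column 10 added to the tamoxifen group it was -0.10.

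Acvrl1 encodes ALK1 itself, the type I receptor for BMP9 and BMP10, on chromosome 15 at 101128522 to 101145336, plus strand. It was at 572.7, 573.6 and 433.8 normalised reads without tamoxifen and at 620.9, 656.5 and 323.3 with it. As for Eng, tamoxifen_1 and tamoxifen_2 were above and tamoxifen_3 below all libraries without tamoxifen. The log2 fold change was -0.04 ± 0.26 (SE, limma adjusted p = 0.976), and it was 0.04 and 0.06 in DESeq2 and edgeR. It was -0.18, -0.22 and 0.29 without tamoxifen_1, tamoxifen_2 and tamoxifen_3, respectively. Bmpr2 encodes the type II receptor and lies on chromosome 1 at 59763400 to 59879014, plus strand. Its values stayed close together, at 845.1, 856.7 and 716.8 normalised reads without tamoxifen and 836.0, 865.5 and 740.7 with it. The log2 fold change was 0.02 ± 0.12 (SE, limma adjusted p = 0.978), with a 95% interval of the fold of 0.837 to 1.22.

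Eng overlaps 61 exonic bases of Fpgs on the opposite strand, and Acvrl1 overlaps 127 exonic bases of the annotated antisense gene Gm16031. No source used here says whether reads were counted by strand, so reads in those stretches cannot be assigned.

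Of the inhibitory SMADs, Smad6 showed the same split of the tamoxifen libraries. SMAD6 acts mainly against BMP receptors, and its gene lies on chromosome 9 at 63953076 to 64022059, minus strand. It was at 161.4, 177.2 and 186.4 normalised reads without tamoxifen and at 226.4, 325.9 and 163.4 with it, so tamoxifen_3 fell inside the range without tamoxifen. The means were 175.0 ± 12.7 and 238.6 ± 81.9 (SD, n = 3 each), and the log2 fold change was 0.39 ± 0.24 (SE, limma adjusted p = 0.637). Without tamoxifen_3 it was 0.63 ± 0.19 (SE, limma adjusted p = 0.0462). It was 0.40 without tamoxifen_1 and 0.14 without tamoxifen_2 (limma adjusted p = 0.962 and 0.934). Smad7, which encodes the inhibitor of both BMP and TGF-beta receptors, was at 839.0, 664.4 and 592.0 without tamoxifen and at 776.6, 983.3 and 702.1 with it. Only tamoxifen_2 exceeded the range without tamoxifen, and the log2 fold change was 0.23 ± 0.17 (SE, limma adjusted p = 0.694). Its sign was positive in all 19 alternative settings, from 0.02 to 0.38.

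Smad9, the gene of the third BMP-specific receptor SMAD, lies on chromosome 3 at 54755582 to 54801257, plus strand, and was close to the limit of detection. It had 2, 1 and 5 reads without tamoxifen and 5, 16 and 1 with it, or 1.08 to 3.8 and 0.70 to 15.2 normalised reads. The groups overlapped, and the gene was too low to be tested. The other BMP-specific SMADs were far more abundant. Smad1 was at 445.1 to 580.5 normalised reads without tamoxifen and 329.6 to 537.8 with it, and Smad5 at 764.0 to 911.0 and 699.3 to 1010.2.

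**Figure D2:**
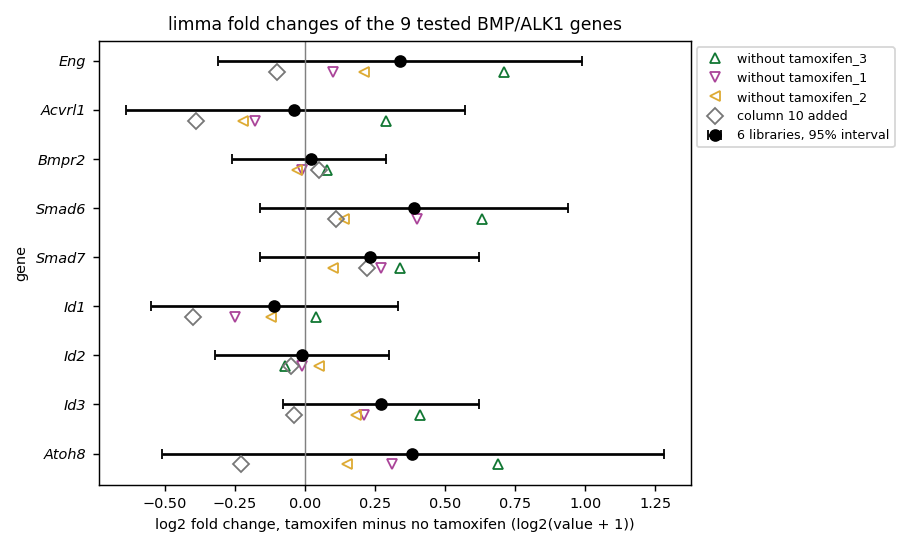
log2 fold changes (tamoxifen minus no tamoxifen, on the log2(value + 1) scale) of the 9 tested genes. Black points with bars are the limma estimates and 95% intervals over 6 libraries, and open symbols are the estimates without each tamoxifen library or with column 10 added. All 9 intervals include 0, and the estimates for Eng run from -0.10 with column 10 added to 0.71 without tamoxifen_3.

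The ID genes encode helix-loop-helix proteins without a DNA-binding region, which hold E proteins in inactive pairs and are the classic direct targets of BMP SMADs. Id1, on chromosome 2 at 152736251 to 152737410, plus strand, was at 259.4, 202.0 and 263.3 normalised reads without tamoxifen and at 271.5, 225.2 and 180.2 with it. One tamoxifen library lay above, one inside and one below the range without tamoxifen, and the log2 fold change was -0.11 ± 0.19 (SE, limma adjusted p = 0.895). Id2, on chromosome 12 at 25093799 to 25097140, minus strand, was at 531.0, 438.6 and 565.4 without tamoxifen and at 506.1, 461.7 and 550.6 with it. All 3 tamoxifen values lay inside the range without tamoxifen, and the fold was 0.992 with a 95% interval of 0.799 to 1.23. Id3, on chromosome 4 at 136143497 to 136145755, plus strand, was at 492.0, 481.8 and 420.8 without tamoxifen and at 606.5, 630.9 and 457.3 with it. It had the lowest p of the 9 genes, and its log2 fold change of 0.27 ± 0.15 (SE, limma adjusted p = 0.610) ranked 2428 of 13480 genes by p. Without tamoxifen_3 it was 0.41 ± 0.14 (SE, limma adjusted p = 0.0695). It was 0.21 without tamoxifen_1 and 0.18 without tamoxifen_2 (limma adjusted p = 0.962 and 0.897).

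Atoh8, which encodes a basic helix-loop-helix factor induced by BMP signalling in endothelial cells, lies on chromosome 6 at 72206177 to 72235577, minus strand. It was at 27.77, 17.28 and 25.87 normalised reads without tamoxifen and at 33.81, 42.75 and 19.64 with it. 2 tamoxifen libraries were above the range without tamoxifen and tamoxifen_3 was inside it. The estimate of 0.38 ± 0.39 (SE, limma adjusted p = 0.784) rested on 16 to 45 reads per library, and with column 10 added it was -0.23.

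Within the tamoxifen group several of these genes were high or low in the same libraries as the endothelial markers. The libraries with a mean log2(value + 1) of 10.36 and 10.43 over the endothelial markers were those with high Eng, Acvrl1, Id3, Smad6 and Atoh8, and the library with 9.12 was the low one. The first pair were also the libraries with high mesenchymal markers, and the part of these markers in the levels was not tested. In libraries 1 to 3 without tamoxifen, the endothelial marker means were 10.42, 10.23 and 9.71. There library 3 was also the lowest for Acvrl1 and Id3, but it was the highest for Smad6. Eng and Atoh8 were lowest in library 2 of that group. In bulk RNA, fewer cells of a type and less RNA per cell cannot be told apart. With each library centred on its mean over the 12 endothelial markers, Eng was at -0.01, -0.17 and 0.63 log2 units without tamoxifen and at 0.73, 0.44 and 0.74 with it. On this scale tamoxifen_3 was level with tamoxifen_1 at the top for Eng, although its normalised reads were the lowest of the 6. Acvrl1 stayed within a narrow band on the same scale, at -1.25, -1.06 and -0.94 without tamoxifen and -1.08, -1.07 and -0.78 with it. Id2, Bmpr2 and Smad7 lay in tamoxifen_3 inside the range without tamoxifen, and relative to the endothelial markers that library was the highest, at -0.01, 0.42 and 0.34 log2 units. This was not particular to them, since on this scale tamoxifen_3 was the highest of the 6 libraries for each of the 9 tested genes. Its endothelial marker mean was the lowest of the 6. After this centring 0 of the 9 genes passed (limma adjusted p = 1 for each), beside 1.45% of all genes, all of them higher. The fit gave the 9 genes similar SEs, from 0.54 for Id1 and Smad6 to 0.6 for Atoh8. For Acvrl1 the SE was 0.57, although the SDs of its centred values were 0.16 without tamoxifen and 0.17 with it. With SEs of that size, changes as small as these could not pass, so no conclusion is drawn from the 0 of 9. The centring moved the median log2 fold change of all genes from -0.02 to 0.13. The estimates for Id1, Id2 and Acvrl1 changed sign under it, to 0.04, 0.14 and 0.11.

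**Figure D3:**
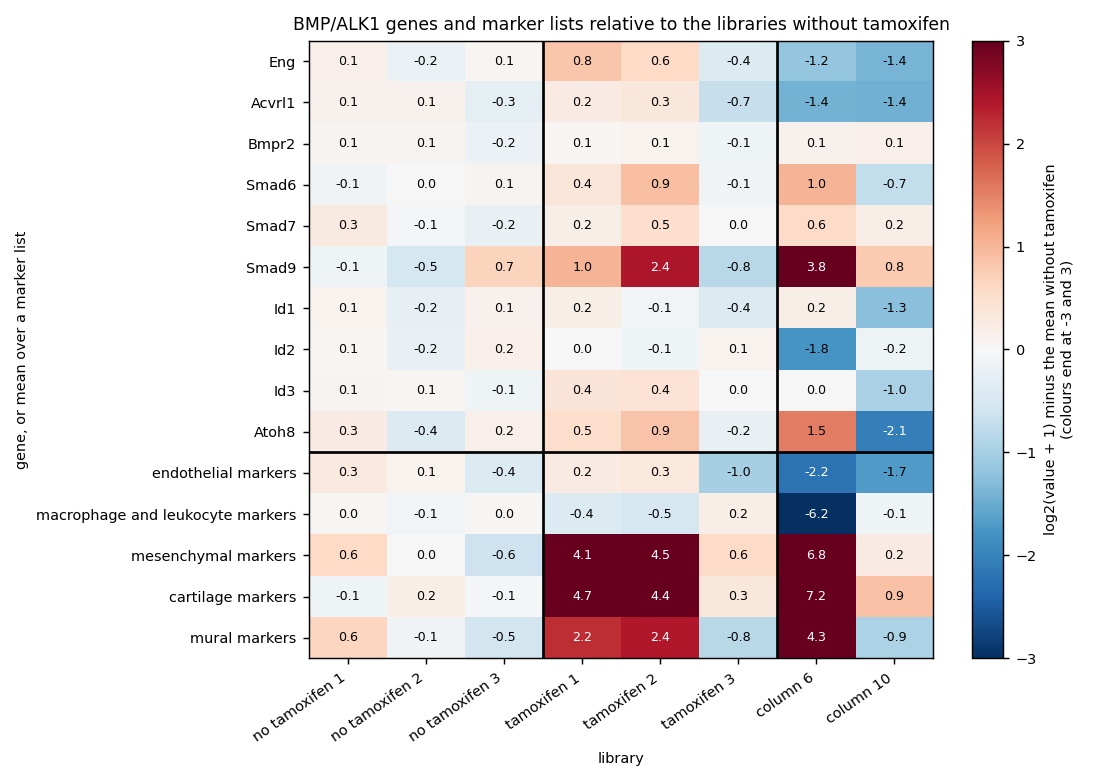
log2(value + 1) of each gene, or its mean over a marker list, minus the mean of the 3 libraries without tamoxifen (rows: genes above the line, marker lists below; columns: libraries, with columns 6 and 10 of the table at the right). Mesenchymal markers are 4.08 and 4.48 higher in tamoxifen_1 and tamoxifen_2 than without tamoxifen, and Eng is at 0.82, 0.60 and -0.41 in tamoxifen_1, tamoxifen_2 and tamoxifen_3.

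Columns 6 and 10 gave values outside the range of the 6 libraries for most of the genes. The share of all genes outside that range was not counted. Column 6 had few macrophage and endothelial transcripts and many mesenchymal ones, with means of 5.34, 7.90 and 12.95 over the 3 marker lists. There Eng was at 549.3 and Acvrl1 at 193.3 normalised reads, both below all 6 libraries, while Smad6, Smad7, Smad9 and Atoh8 were at 358.0, 1025, 40.7 and 69.2, all above them. Id2 was at 148.5 in column 6, below all 6 libraries. Id1 and Bmpr2 were slightly above them at 272.6 and 880.8, and Id3 was inside their range at 459.8. Column 10 had an endothelial marker mean of 8.42, lower than that of any of the 6 libraries. Eng, Acvrl1, Id1, Id3, Smad6 and Atoh8 were at 465.9, 191.3, 99.5, 235.0, 104.3 and 4.80 there, all below the 6 libraries. Bmpr2 was at 890.4 in column 10, above all 6 libraries, and Smad7 and Id2 were inside their range at 787.2 and 455.1.

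Per kilobase of exon, Eng had the highest level of the 10 genes without tamoxifen, at 306.1 ± 38.2 normalised reads per kilobase (SD, n = 3). Id3 followed at 259.6 ± 21.5, then Id2 at 209.9 ± 26.9 and Id1 at 208.3 ± 29.6. Smad7 was at 154.5 ± 28.1, Acvrl1 at 123.5 ± 18.9, Smad6 at 54.6 ± 3.95 and Bmpr2 at 44.8 ± 4.32. The ranges over the 3 libraries overlapped between Eng and Id3, and between neighbours from Id2 down to Acvrl1, so those orders are not resolved. The Id3 range ended just above that of Id2 (235.0 against 231.9), and Smad6, Bmpr2, Atoh8 (9.43 ± 2.23) and Smad9 (0.411 ± 0.265) lay apart from each other and from the genes above. The length is the union of annotated exons, which for Bmpr2 comes to 17983 bases, so a gene whose transcripts use only part of it has its level understated.

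The other genes of the pathway gave no call either. Of 12 BMP ligand genes 4 were expressed highly enough to test, 0 were called, and Bmp2, a ligand of BMP type I receptors other than ALK1, was higher at an unadjusted p of 0.0292, with 211.7 to 255.1 normalised reads without tamoxifen and 272.5 to 333.9 with it (limma adjusted p = 0.505). Bmp4 had a log2 fold change of 0.69 ± 0.49 (SE, limma adjusted p = 0.683). The ALK1 ligand genes were at the limit of detection. Gdf2 was at 0 in the 3 libraries without tamoxifen and at 0.70 to 1.9 normalised reads with it, and Bmp10 was at 0.76 to 4.32 without and 0 to 0.95 with it. A count of 0 allows up to 3 reads, or 2.28 to 3.24 normalised reads in the libraries without tamoxifen, so no difference in Gdf2 was detectable at this depth.

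Of the 10 other type I, type II and TGF-beta receptor genes 8 were tested, with 0 called and a median log2 fold change of -0.04. Bmpr1a and Acvr1, type I receptors for other BMPs, had values of 0.11 ± 0.15 and 0.23 ± 0.22 (SE), Acvr2b, a type II receptor, of -0.04 ± 0.20 and Tgfbr2 of -0.12 ± 0.10. Tgfbr3, the gene of the co-receptor betaglycan, a relative of endoglin, was at 225.2 to 324.5 normalised reads without tamoxifen and at 577.8, 712.6 and 238.5 with it. Its log2 fold change was 0.79 ± 0.37 (SE, limma adjusted p = 0.573), and without tamoxifen_3 it was 1.26 ± 0.17 (SE, limma adjusted p = 0.000139). It was 0.62 without tamoxifen_1 and 0.47 without tamoxifen_2 (limma adjusted p = 0.962 and 0.88). Of the 5 other SMAD genes 0 were called. Smad4, the shared partner, was at 775.4 to 855.5 normalised reads without tamoxifen and at 774.3 to 862.7 with it. Smad1, Smad3 and Smad5 had log2 fold changes of -0.20 ± 0.19, 0.05 ± 0.10 and 0.07 ± 0.16 (SE). Smad2, a SMAD of the TGF-beta branch, was lower at an unadjusted p of 0.0363 (log2 fold change -0.27 ± 0.11, SE, limma adjusted p = 0.523).

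Of 18 BMP antagonists and modulators 13 were tested and 0 called, 11 had positive values, and the median was 0.35 log2 units. The BMP antagonist gene Nbl1 was at 3.04 to 6.07 normalised reads without tamoxifen and at 47.13, 76.01 and 7.72 with it (log2 fold change 2.49 ± 0.79, SE, limma adjusted p = 0.471). Bmper, the gene of a BMP-binding endothelial regulator, was at 7.56 to 11.41 without tamoxifen and at 42.01, 68.41 and 11.92 with it (limma adjusted p = 0.475). Both were high in the 2 libraries with high mesenchymal markers, among them the fibrillar collagen gene Col1a1 (26219, 42746 and 1988 normalised reads in the 3 tamoxifen libraries), and in tamoxifen_3 both lay just above the libraries without tamoxifen. The cartilage proteoglycan gene Acan was high in the same libraries, at 1269.4, 946.3 and 32.96. The part of mesenchymal RNA in these values was not tested. Skil, a repressor of SMAD transcription, had a log2 fold change of -0.41 ± 0.16 (SE, limma adjusted p = 0.509).

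Of 8 other endothelial targets of BMP9 and BMP10, 6 were tested, all 6 with positive values and 0 called, with a median of 0.41. Of all 13480 genes tested, 6264 had positive values. For all 6 targets tamoxifen_1 and tamoxifen_2 were above every library without tamoxifen. In tamoxifen_3, Hey1, Jag1, Gja4, Unc5b and Tmem100 were below every library without tamoxifen, and Efnb2 was inside their range. The share of all genes with such a split was not counted, so the split is not read as particular to these targets. Tmem100, a gene that depends on ALK1 in the embryo, was at 13.88, 8.64 and 9.13 normalised reads without tamoxifen and at 14.34, 41.80 and 4.91 with it (log2 fold change 0.47 ± 0.72, SE, limma adjusted p = 0.870). Id4, the fourth ID gene, was at 3.24 to 3.80 without tamoxifen and 0 to 21.85 with it and was too low to test. Of the 3 genes of E proteins, with which ID proteins pair, 0 were called, with log2 fold changes of 0.20 ± 0.12 (SE) for Tcf3 and 0.05 ± 0.23 for Tcf4. Tcf4 was at 1780.5, 1652.8 and 1254.1 normalised reads without tamoxifen and at 1963.0, 1875.5 and 1116.6 with it, so tamoxifen_1 and tamoxifen_2 were above and tamoxifen_3 below that range. In the TGF-beta list 9 of 10 genes were tested and 0 called, with 7 positive and a median of 0.92. Tgfb3, a TGF-beta ligand gene, and Ctgf, the connective tissue growth factor gene, had log2 fold changes of 1.23 ± 0.48 and 1.06 ± 0.35 (SE, limma adjusted p = 0.516 and 0.475) and were highest in tamoxifen_2 and in tamoxifen_1, respectively.

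**Figure D4:**
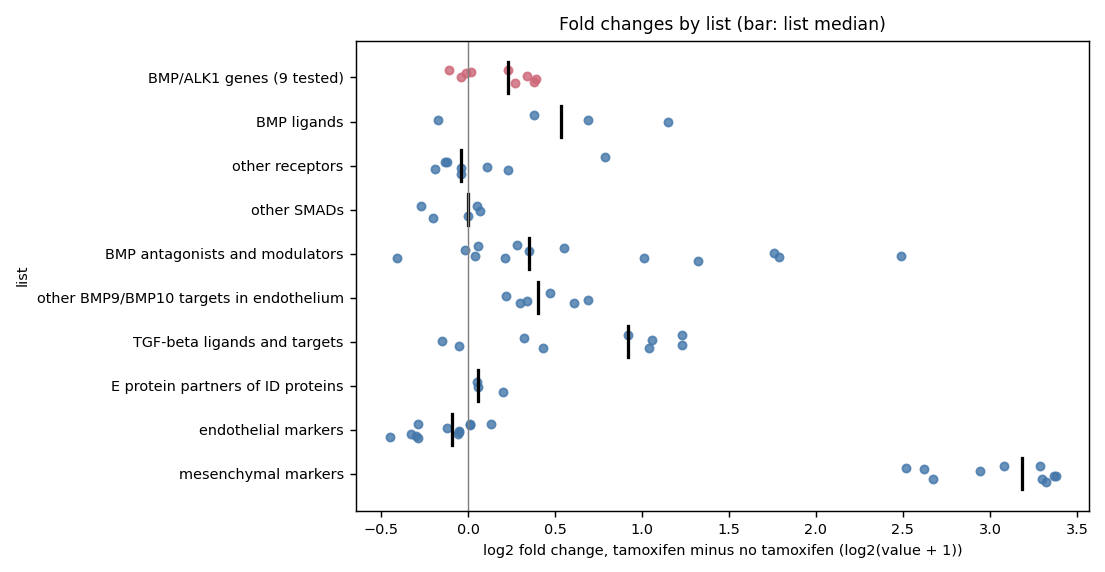
log2 fold changes (tamoxifen minus no tamoxifen, on the log2(value + 1) scale) of each tested gene, by list, with the list median as a bar. The 9 BMP/ALK1 genes lie between -0.11 and 0.39, and the mesenchymal markers, with a median of 3.18, between 2.52 and 3.38.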

How the data were processed

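The deposited values are a signal unit, read counts per gene symbol divided by 1 size factor per library by the authors. Per the submitters' processing notes, STAR, HTSeq 0.11.2 and DESeq2 were used, and the builds hg38 and mm10 are listed, without their roles. In the 8 columns used, 100% of values were whole multiples of 1 step (tolerance 0.001 reads), which gave whole reads for the count tests. 1 value column, without a settled name, was not used. Genes with a mean of at least 10 over the 6 libraries (13480) were compared in R 4.3.3 by limma 3.58.1, on log2(value + 1) with a mean-variance trend and group as the only term. Such fold changes understate the change of low genes. edgeR 4.0.16 and DESeq2 1.42.0 were run on recovered reads. Each test was first tried on simulated data, with 3 against 3 libraries. Only genes with a mean of at least 50 reads were changed, by 2-fold or more, and no difference in cell makeup between libraries was simulated. There limma recovered 62.4%, edgeR 64.3% and DESeq2 73.2% of 2-fold changes. Of their calls, 4.28%, 5.13% and 17.3% were false, so DESeq2 exceeded the nominal 0.05. The genes and lists were chosen with earlier results of these data known. Named genes were the 10 genes, a set of pathway and marker genes, and up to 3 genes per wider list with an unadjusted p under 0.05. Positions are from GENCODE M21 (GRCm38, also called mm10), and promoters from RefSeq (GRCm38.p6). Intervals and floors of reads cover counting error only. 1 gene of the wider lists is not reported here.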

Additional observations from a re-analysis of the deposited data

Results flagged for a closer look

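Column 6 of the deposited table, whose group the short header does not settle and which entered no main comparison, held 4 of the 10 genes above every library without tamoxifen, with 95% exact Poisson intervals of the recovered reads that did not meet. Smad6 was at 358.0 normalised reads, Smad7 at 1025, Smad9 at 40.7 and Atoh8 at 69.2. The highest values without tamoxifen were 186.4, 839.0, 3.8 and 27.77. In the same column the mesenchymal marker mean was 12.95 log2 units and the macrophage and leukocyte mean 5.34. The part of these markers in the 4 values was not tested. Of the 9 tested genes 3 were above by this rule, beside 28.5% of all 13480 tested genes, and Eng, Acvrl1 and Id2 were below every library without tamoxifen, beside 32.4% of all genes, so neither count sets these genes apart. In column 10, 6 of the 9 (Eng, Acvrl1, Id1, Id3, Smad6 and Atoh8) were below, beside 8.49% of all genes, and 0 were above, beside 6.08%. The endothelial marker mean of that column was 8.42, and its part was not tested. These intervals cover counting error only, and each column is a single library, so the spread between samples is not covered.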

How the results depend on the processing

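Of 660 single-gene values recomputed for 35 genes under 19 alternatives, 555 kept their direction and side of the threshold, 85 reversed and 20 newly passed. None of the 35 genes was called in the main fit, so no call could be lost. The 6 genes called over the whole table became 275 with DESeq2 and 195 after centring on endothelial markers. With the library names over the first 8 value columns 0 were called. That fit left out the unused value column, which this placement gives to the group without tamoxifen. Without 1 library 2 to 1442 genes were called, the most without tamoxifen_3. With tamoxifen_3 as the only tamoxifen library, an alternative chosen after seeing the data, 91 were called, on the assumption that it varies like the other group. Of the BMP/ALK1 genes 0 were called in every alternative except without tamoxifen_3, where 2 were. With the replicate number as a block 21 genes were called, 0 of them BMP/ALK1 genes. Deviations of libraries with the same number correlated at 0.20, 0.04 and 0.34, so the numbers were not taken to pair the libraries.

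These log2 fold changes reversed, and the cause was not tested. Rescaling by TMM gave Id2 0.02. edgeR gave Id2 0.02, Acvrl1 0.06, Cdh5 0.01 and Pecam1 0.06, and DESeq2 gave Acvrl1 0.04 and Pecam1 0.04. Centring on endothelial markers gave Id1 0.04, Id2 0.14, Acvrl1 0.11, Acvr2b 0.11, Tgfbr2 0.03, Cdh5 0.03 and Pecam1 0.10. Adding column 10 gave Id3 -0.04, Eng -0.10, Atoh8 -0.23, Smad4 -0.03, Smad5 -0.02, Tmem100 -0.02 and Tcf4 -0.11. Placing the names over the first 8 value columns, again without the unused column, gave Eng -0.04 and Acvr2b 0.26. Placing them over the last 8 gave Id2 0.39, Id3 -0.04, Smad6 -0.15, Atoh8 -0.61, Bmp4 -0.39, Bmpr1a -0.32, Acvr1 -0.20, Tgfbr2 0.04, Tgfbr3 -0.33, Smad4 -0.04, Smad5 -0.10, Tmem100 -0.60, Tcf3 -0.06, Tcf4 -0.50, Cdh5 0.05, Pecam1 0.26, Csf1r 1.28, Ctgf -0.06 and Tgfb3 -0.07. Leaving out tamoxifen_1 and tamoxifen_2 together gave Id2 0.11, Id3 -0.02, Smad6 -0.10, Eng -0.41, Bmpr2 -0.12, Atoh8 -0.23, Bmp4 -0.08, Acvr1 -0.13, Tgfbr3 -0.16, Smad4 -0.07, Smad5 -0.27, Tmem100 -0.94, Tcf3 -0.01, Tcf4 -0.47, Csf1r 0.17 and Tgfb3 0.00. Leaving out 1 library at a time gave ranges of -0.25 to 0.04 for Id1, -0.12 to 0.06 for Id2, -0.22 to 0.29 for Acvrl1, -0.07 to 0.08 for Bmpr2, -0.11 to 0.07 for Acvr2b and -0.35 to 0.00 for Smad1. For the other genes that reversed they were -0.04 to 0.04 for Smad4, -0.02 to 0.25 for Smad5, -0.25 to 1.18 for Tmem100, -0.10 to 0.31 for Tcf4, -0.37 to 0.32 for Cdh5 and -0.26 to 0.33 for Pecam1. Smad9, with 1 to 16 reads per library, and Atoh8, with 16 to 45, were limited by depth.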

Other observations

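The genes whose values moved most like each of the 10 genes over the 6 libraries were sought among tested genes with a mean of at least 50. For Eng the nearest was Notch1, the Notch receptor gene (Pearson r = 0.994), and for Acvrl1 they were Utrn, Bcl6b and Hmcn1 (0.998, 0.997 and 0.996). For Id3 they were Dgka, Tnc and Sdc1 (0.998, 0.996 and 0.996), for Smad6 Ptk7 (0.982) and for Id1 Ccnj (0.992). These values describe 6 libraries that share their depth and cell makeup with every gene. Of 10251 genes compared, 465 were above 0.9 with Acvrl1, 432 with Id3, 239 with Eng and 11 with Id1.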
